A study of Homo sapiens with 9 samples.

Results

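The CCN family is a group of 6 related genes, CCN1 to CCN6, that encode secreted matricellular proteins. All 6 were found by symbol or Ensembl ID among the 36601 genes of the count files, and older names (CYR61, CTGF, NOV, WISP1, WISP2 and WISP3) were matched to the same IDs. Transcript levels were followed in LX2, an immortalised human hepatic stellate line; stellate cells become matrix-producing myofibroblasts in liver fibrosis. The cells received an siRNA against YAP (siYAP), an siRNA against TAZ (siTAZ) or a non-targeting siRNA (siNT), each at 20 nM by lipofection, and were kept for 7 days in medium with 10% serum. The labels call the cells WT and name no other genetic change or agent, they do not say whether each siRNA was a pool, and all 3 groups share the line, the medium and the transfection. Each group held 3 libraries, described as biological replicates. Whether they came from separate cultures is not stated, and p-values therefore reflect the variation among these libraries, which may be technical.

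CCN proteins are built from an IGFBP-like module, a von Willebrand factor type C module, a thrombospondin type 1 module and a C-terminal cysteine-knot module, the last of which CCN5 lacks. They bind integrins, proteoglycans and growth factors at the cell surface and in the matrix. CCN1 and CCN2 are textbook target genes of YAP and TAZ, the Hippo pathway coactivators that act through TEAD DNA-binding proteins. CCN2, long known as connective tissue growth factor, is a profibrotic product of activated stellate cells, whereas CCN3 opposes CCN2 in renal mesangial cells and other mesenchymal cells.

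The region just before the start of CCN2 is shown because it carries the TEAD word GGAATG, and CCN2 was the member with the largest fall after siYAP. The 250 bases run 5′ to 3′ on the minus strand, chr6:131951373-131951622, from the RefSeq promoter table on GRCh38.p14, with each GGAATG in capitals.
CCN2: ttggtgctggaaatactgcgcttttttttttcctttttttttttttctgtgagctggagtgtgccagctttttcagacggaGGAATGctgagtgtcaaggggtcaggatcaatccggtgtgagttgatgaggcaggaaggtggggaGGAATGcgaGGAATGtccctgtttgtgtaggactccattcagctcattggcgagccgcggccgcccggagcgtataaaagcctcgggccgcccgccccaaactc
The word was searched on both strands and found 3 times on the strand of the gene, at -169 to -164, -104 to -99 and -95 to -90 bases from the start, and TATAAA, the TATA word, lay at -32 to -27. In the same window GGAATG occurred at least 1 time in 11.9% of 35116 promoters and at least 3 times in 29 of them (0.0826%), and TATAAA in 10.7%. The table held 2 of the 6 members, CCN2 and CCN6, and the window before CCN6 held 1 GGAATG, at -128 to -123. A match describes the letters and is not a measured binding site.

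**Figure D1:**
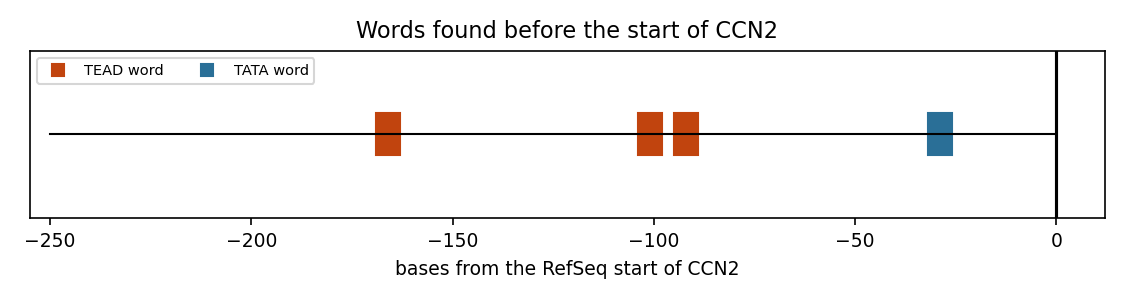
Map of the 250 bases before the RefSeq start of CCN2, with distance from the start in bases on the x axis. The 3 TEAD words sit between -169 and -90, and the TATA word lies between them and the start at -32 to -27.

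Per library, between 16498508 and 18752805 counts fell in genes. Levels are given in CPM, counts relative to a TMM-scaled library size, and 1 count was worth 0.0522 to 0.0591 CPM. YAP1 averaged 26.3 ± 1.49 CPM in siYAP, 170.0 ± 8.01 CPM in siTAZ and 209 ± 4.11 CPM in siNT (SD, n = 3 each), and WWTR1, the gene of TAZ, 75.8 ± 0.522 CPM in siYAP, 9.53 ± 0.917 CPM in siTAZ and 62.0 ± 5.50 CPM in siNT. Of 16 stellate and myofibroblast markers, LRAT was at 0 counts in every library, and their summed level was 4197 to 4272 CPM in siYAP, 10287 to 10459 CPM in siTAZ and 6863 to 6978 CPM in siNT. The largest part of that sum was COL1A1, which averaged 2046 CPM in siYAP, 6255 CPM in siTAZ and 4168 CPM in siNT. The markers did not move as 1 set. Of 14 tested, 5 were called higher and 7 lower after siYAP against siNT, where 67.1% of all genes were called. After siTAZ 6 were higher and 3 lower, beside 34.6% of all genes called. Among 7 hepatocyte markers, all but SERPINA1, 6 in number, had at most 3 counts in every library. The summed hepatocyte level was 12.8 to 16.0 CPM in siYAP, 0.866 to 2.19 CPM in siTAZ and 1.899 to 2.004 CPM in siNT. That of 6 cholangiocyte and epithelial markers was 79.9 to 83.1 CPM in siYAP, 68.5 to 72.5 CPM in siTAZ and 50.2 to 52.7 CPM in siNT. Nearly all of it was SOX9, which averaged 80.0 CPM in siYAP, 68.4 CPM in siTAZ and 49.1 CPM in siNT. Endothelial markers (6 genes) summed to 8.51 to 11.6 CPM in siYAP, 3.36 to 4.48 CPM in siTAZ and 7.87 to 8.57 CPM in siNT, and leukocyte markers (7 genes) to 14.3 to 16.5 CPM in siYAP, 10.0 to 12.6 CPM in siTAZ and 13.2 to 15.5 CPM in siNT. The endothelial sum hides opposite moves. PECAM1 averaged 6.39 CPM in siYAP, 0.367 CPM in siTAZ and 0.519 CPM in siNT, and CDH5 0.364, 2.33 and 5.21 CPM in the same order. The leukocyte sum was mostly CD14, at 10.2, 9.29 and 9.96 CPM in that order, and hides opposite moves as well. PTPRC averaged 0.147, 0.427 and 2.60 CPM, and CSF1R 2.74, 0.632 and 0.789 CPM. Mitochondrial genes took 0.730 to 1.07% of counts in siYAP, 1.44 to 1.65% in siTAZ and 1.27 to 1.49% in siNT. Reads in no annotated feature made up 6.01 to 7.49% of reads in siYAP, 5.53 to 5.63% in siTAZ and 4.73 to 5.13% in siNT, so the groups did not overlap and siYAP was highest. The part of these differences in the CCN results was not tested. In bulk RNA, fewer cells expressing a gene and less RNA per cell cannot be told apart.

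The 6 genes covered a wide span of levels. Compared per kilobase of exon, CCN1 averaged 124 ± 2.70 CPM per kilobase in siYAP, 353 ± 16.3 in siTAZ and 390.0 ± 14.8 in siNT. CCN2 averaged 29.8 ± 2.01 CPM per kilobase in siYAP, 162 ± 11.9 in siTAZ and 165 ± 5.41 in siNT. CCN3 averaged 14.7 ± 1.25 CPM per kilobase in siYAP, 6.34 ± 0.960 in siTAZ and 5.89 ± 0.437 in siNT (SD, n = 3 each). CCN4 and CCN5 averaged at most 0.319 and 0.191 CPM per kilobase in any group, and CCN6 at most 0.0351. The order of the means was CCN1, CCN2, CCN3, CCN4, CCN5, CCN6 in all 3 groups. The libraries of neighbours in that order overlapped for CCN5 and CCN6 in siYAP and for CCN4 and CCN5 in siTAZ, and for no other neighbours. With the longest annotated transcript as length, CCN4 and CCN5 also overlapped in siNT, and the order of their means turned in siTAZ. Of 15425 genes ranked by level per kilobase, 198 stood above CCN1 in siYAP, 35 in siTAZ and 33 in siNT. Above CCN2 there were 1508 genes in siYAP, 127 in siTAZ and 128 in siNT, and above CCN3 there were 3423 in siYAP, 6632 in siTAZ and 6882 in siNT.

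**Figure D2:**
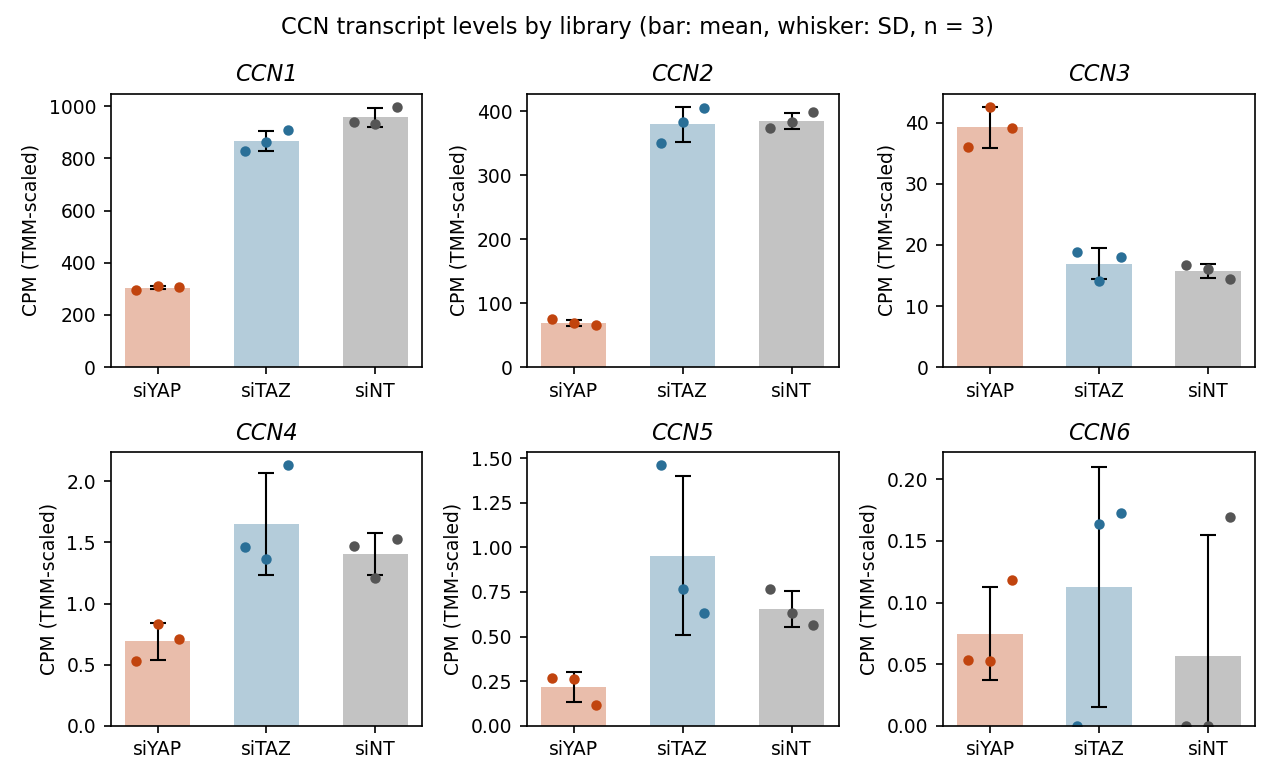
CPM of each CCN gene by group, with 1 point per library, bars at the mean and whiskers of 1 SD (n = 3); each panel has its own y axis in CPM. For CCN1 and CCN2 the siYAP points lie below the siTAZ and siNT points, and for CCN3 they lie above them, while CCN6 stays near 0 in all groups.

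After siYAP, CCN1 and CCN2 fell by several fold and CCN3 rose, and the rare CCN4 and CCN5 also fell, though those calls were lost when some single libraries were left out. In all, 5 of the 6 genes had enough counts to be tested, and all 5 differed between siYAP and siNT at an adjusted p under 0.05 (edgeR quasi-likelihood test, Benjamini-Hochberg adjustment over 15560 genes), 1 of them higher and 4 lower. CCN5 passed the count filter with the siTAZ libraries in the fit, and not with siYAP and siNT alone. The place of CCN5 in these counts and in the median below rests on that filter. Over all genes tested 67.1% were called in this comparison, 33.8% higher and 33.4% lower, so a call by itself is common here. The libraries of siYAP and siNT did not overlap for any of the 5, which was also so for 70.5% of all genes tested. The median log2 fold change of the 5 was -1.56, which is the value of CCN5 itself, against 0.02 over all genes.

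CCN1 (ENSG00000142871, chromosome 1, 85580761 to 85583962, plus strand, GENCODE 29 on GRCh38 as for the other members) encodes an integrin ligand of fibroblasts and endothelial cells that is an immediate-early response gene. Its level was 297, 310 and 306 CPM in siYAP, 830, 862 and 910 CPM in siTAZ and 940, 933 and 999 CPM in siNT. The siYAP libraries lay close together and far below the rest, and the 3 groups did not overlap. CCN1 fell by 1.65 on the log2 scale after siYAP against siNT (SE 0.03, 95% interval -1.72 to -1.59, adjusted p = 3.71e-48), which is 3.14-fold lower. Among all genes tested, 554 had a lower log2 fold change.

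CCN2 (ENSG00000118523, chromosome 6, 131948176 to 131951373, minus strand) is the gene whose promoter is printed above. It was present at 74.6, 69.4 and 65.3 CPM in siYAP, 350.0, 383 and 405 CPM in siTAZ and 374, 382 and 399 CPM in siNT. The siYAP libraries stood far below both other groups, and the siTAZ libraries enclosed the siNT range. The log2 difference of siYAP against siNT was -2.46 (SE 0.05, 95% interval -2.56 to -2.37, adjusted p = 6.77e-32), or 5.52-fold lower, and 189 genes had a lower value. A gene on the opposite strand, AL133346.1, shares 195 exonic bases with CCN2 and had at most 1 count in any library.

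CCN3 (ENSG00000136999, chromosome 8, 119416306 to 119424353, plus strand), first known as the nephroblastoma overexpressed gene, moved the other way. It was found at 36.0, 42.6 and 39.1 CPM in siYAP, 18.8, 14.0 and 18.0 CPM in siTAZ and 16.7, 16.1 and 14.4 CPM in siNT. Each siYAP library was above every library of the other groups. The log2 difference of siYAP against siNT was 1.32 (SE 0.10, 95% interval 1.12 to 1.51, adjusted p = 2.53e-19), or 2.49-fold higher, and 1154 genes had a higher value.

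CCN4 (ENSG00000104415, chromosome 8, 133191039 to 133231690, plus strand), the WNT1-inducible gene WISP1, was near the lower limit of what these libraries can measure. It had 10, 16 and 12 counts in siYAP, 27, 25 and 37 counts in siTAZ and 25, 21 and 27 counts in siNT, which is 0.692 ± 0.152 CPM in siYAP, 1.65 ± 0.419 CPM in siTAZ and 1.40 ± 0.171 CPM in siNT (SD, n = 3 each). The siYAP libraries lay below all others. The log2 difference of siYAP against siNT was -1.01 (SE 0.43, 95% interval -1.87 to -0.16, adjusted p = 0.0296). This call was lost when siYAP replicate 1 (adjusted p = 0.105), siYAP replicate 3 (0.0540), siNT replicate 1 (0.0657) or siNT replicate 3 (0.0751) was left out.

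CCN5 (ENSG00000064205, chromosome 20, 44714844 to 44728509, plus strand), or WISP2, is the member without the C-terminal module. It had 5, 5 and 2 counts in siYAP, 27, 14 and 11 counts in siTAZ and 13, 11 and 10 counts in siNT, which is 0.215 ± 0.0839 CPM in siYAP, 0.954 ± 0.445 CPM in siTAZ and 0.655 ± 0.102 CPM in siNT (SD, n = 3 each). The siYAP libraries were again the lowest, and siTAZ replicate 1 stood apart above the rest. The log2 difference of siYAP against siNT was -1.56 (SE 0.66, 95% interval -2.88 to -0.23, adjusted p = 0.025), and the call was lost without siYAP replicate 3 (adjusted p = 0.103) or siNT replicate 1 (0.0782). Without any siTAZ library in the fit, CCN5 did not pass the count filter for this comparison. KCNK15-AS1 overlaps CCN5 on the opposite strand without sharing exonic bases and had up to 33 counts in a library.

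CCN6 (ENSG00000112761, chromosome 6, 112054072 to 112070969, plus strand), or WISP3, was not detectable above the floor of 3 counts. It had 1, 1 and 2 counts in siYAP, 0, 3 and 3 counts in siTAZ and 0, 0 and 3 counts in siNT. No fold is given for it. CCN6 shares 193 exonic bases with TUBE1 on the opposite strand, a tubulin gene that had up to 338 counts.

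After siTAZ the family changed little. CCN1 was the member called, lower than in siNT, and the other 4 tested genes did not pass the test, beside 34.6% of all genes called in this comparison (16.4% higher and 18.2% lower). Only for CCN1 among the 5 did the siTAZ and siNT libraries not overlap, which was so for 44.6% of all genes tested. The median log2 fold change of the 5 was 0.11, against 0.01 over all genes. CCN5, at 0.54, is among the 5 through its siTAZ libraries, so this median rests on the count filter too.

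CCN1 fell by 0.14 on the log2 scale after siTAZ (SE 0.03, 95% interval -0.21 to -0.08, adjusted p = 0.000279), to a level 9.44% below siNT. The call held under every alternative tried, with adjusted p between 4.65e-05 and 0.0154. For CCN2 the log2 difference of siTAZ against siNT was -0.02 (SE 0.04, adjusted p = 0.744), and its 95% interval of -0.11 to 0.07 bounds the change in either direction. For CCN3 the difference was 0.11 (SE 0.10, 95% interval -0.10 to 0.32, adjusted p = 0.465). The intervals of CCN4 (-0.53 to 0.99) and CCN5 (-0.48 to 1.56) were wide and included changes of more than 1.5-fold upwards, so at this depth differences of that size could not be seen.

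The direct comparison of siTAZ with siYAP tests whether the knockdowns differ. All 5 tested genes differed, 4 higher and 1 lower in siTAZ, beside 66.2% of all genes called (33.0% higher and 33.2% lower), and the libraries of the groups did not overlap for any of the 5 or for 68.2% of all genes. CCN2 was 5.43-fold higher in siTAZ than in siYAP (log2 2.44, SE 0.05, adjusted p = 1e-31) and CCN1 2.85-fold higher (log2 1.51, SE 0.03, adjusted p = 5.5e-46). CCN3 was 2.31-fold lower in siTAZ than in siYAP (log2 -1.21, SE 0.10, adjusted p = 6.07e-18). CCN4 was 2.37-fold higher in siTAZ (95% interval of the log2 difference 0.41 to 2.08, adjusted p = 0.00652) and CCN5 4.28-fold higher (0.82 to 3.38, adjusted p = 0.00154). CCN5 passed the count filter through the siTAZ libraries, which are the high side of this comparison. Its fold and p here, and its place among the 5, rest on that filter. The comparisons share libraries, so they are not independent of each other.

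**Figure D3:**
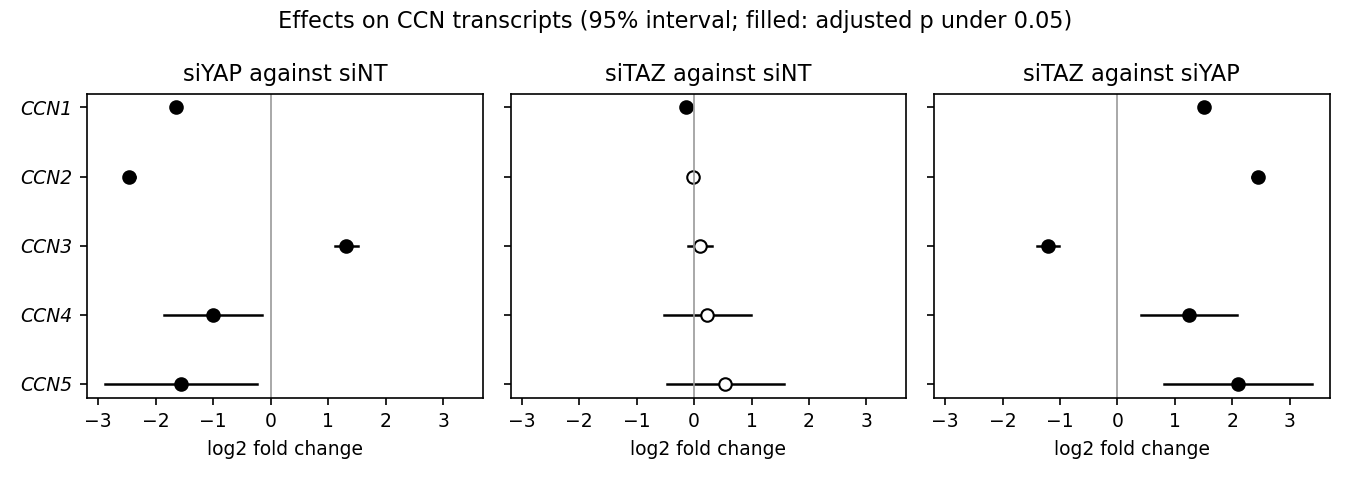
Log2 fold change of the 5 tested CCN genes (x axis) in each comparison, with 95% intervals; filled points have an adjusted p under 0.05. The siYAP panel spans -2.46 for CCN2 to 1.32 for CCN3, and in the siTAZ against siNT panel CCN1, at -0.14, is the filled point.

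The summed level of the 6 genes, which was mostly CCN1 and CCN2, was lower after siYAP, and the makeup of the sum shifted. CPM is relative to all counts, and CCN3 moved against the sum. The 6 genes summed to 167, 172 and 167 CPM per kilobase in siYAP, 495, 520.4 and 551 in siTAZ and 549.7, 549.9 and 583 in siNT. The siYAP sums lay far below the others, and the siTAZ and siNT sums overlapped.

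CCN1 held 73.5 ± 0.896% of the summed level per kilobase in siYAP, 67.6 ± 0.546% in siTAZ and 69.5 ± 0.361% in siNT. The share of CCN2 was 17.7 ± 1.30% in siYAP, 31.0 ± 0.723% in siTAZ and 29.4 ± 0.336% in siNT. CCN3 took 8.69 ± 0.595% in siYAP, 1.22 ± 0.207% in siTAZ and 1.05 ± 0.112% in siNT (SD, n = 3 each). Within a library, CCN1 exceeded CCN2 per kilobase by 3.80, 4.26 and 4.46 times in siYAP, 2.26, 2.14 and 2.14 times in siTAZ and 2.39, 2.32 and 2.39 times in siNT. The ratio was highest in siYAP and lowest in siTAZ, and no groups overlapped (exact two-sided permutation p = 0.1 for each knockdown against siNT, the smallest p that 3 libraries against 3 can give). CCN2 exceeded CCN3 by 2.37, 1.86 and 1.91 times in siYAP, 21.2, 31.2 and 25.7 times in siTAZ and 25.6, 27.1 and 31.6 times in siNT. The siYAP ratios lay below the rest (exact two-sided permutation p = 0.1 against siNT), and siTAZ overlapped siNT (exact two-sided permutation p = 0.5).

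**Figure D4:**
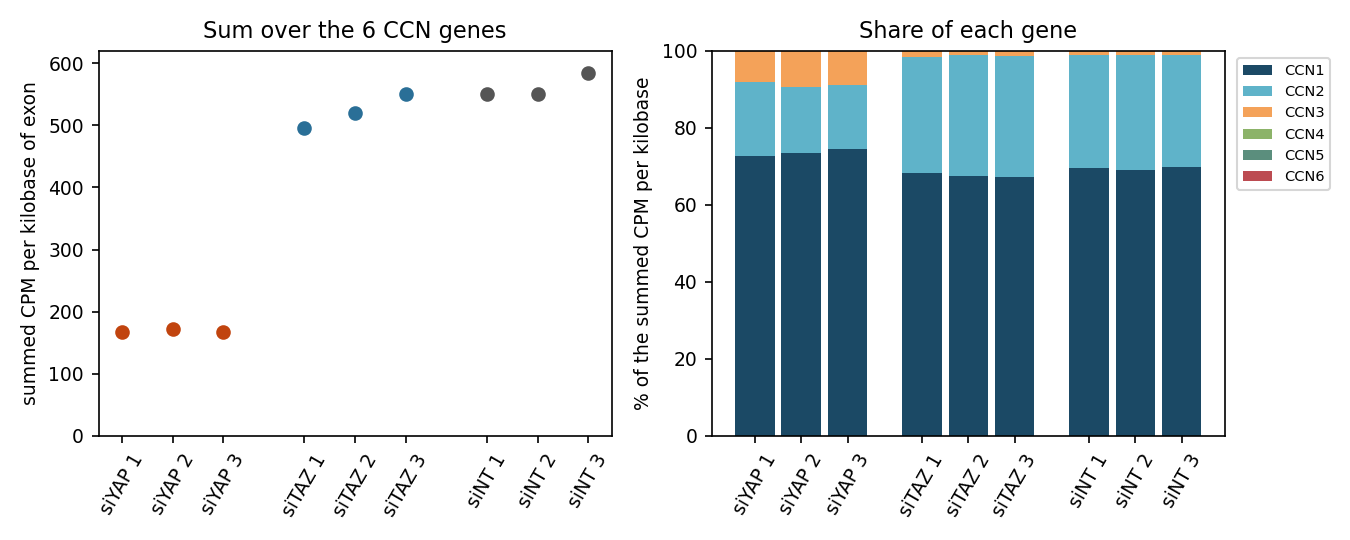
Left, summed CPM per kilobase of exon over the 6 CCN genes in each library; right, the percentage of that sum held by each gene. The siYAP sums average 169 and the siNT sums 561, and the CCN3 band widens to 8.69% on average in siYAP; the bands of CCN4, CCN5 and CCN6 are too thin to see.

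Genes whose centred log2 CPM lay nearest to each member over the 9 libraries were found among 10425 or more candidate genes whose mean log2 CPM was 3 or higher. For CCN1 these were POLR2C, a subunit of RNA polymerase II, PLK1, a mitotic kinase, and CTNNA1, which encodes alpha-catenin, at root mean square differences of 0.05, 0.06 and 0.06 log2 units and Pearson's r of at least 0.997. For CCN2 they were BTBD1, KCTD20 and TFAM, a mitochondrial transcription factor, at 0.09, 0.09 and 0.11. For CCN3 they were the histone gene H4C9, TXNL4B and TMEM132A at 0.10, 0.11 and 0.12, and H4C9 belongs to a multigene family whose reads may be shared. For the rare CCN4 (LRRC1, TRMT10A and CHN1) and CCN5 (B3GALNT1, ASB13 and SUDS3) the distances were larger, 0.16 to 0.17 and 0.20 to 0.29. The 9 libraries form 3 groups, so these values mostly describe the group means.

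Genes with roles around the CCN proteins were described from lists, and each one said to rise or fall had an adjusted p under 0.05 in the fit described above. The counts of every list below stand beside the shares over all genes tested. After siYAP 33.8% of all genes were called higher and 33.4% lower, with a median log2 fold change of 0.02. After siTAZ 16.4% were called higher and 18.2% lower, with a median of 0.01. Of 17 receptors and coreceptors, 15 were tested, and 8 were higher and 6 lower after siYAP against siNT, with a median log2 fold change of 0.24 against 0.02 over all genes. ITGA5, the integrin alpha 5 chain of the fibronectin receptor, averaged 1623 ± 37.9 CPM in siYAP and 540.3 ± 7.76 CPM in siNT (SD, n = 3 each), a log2 difference of 1.59. IGF2R, the mannose-6-phosphate receptor reported to bind CCN2, rose by 0.99 and ITGB1, the shared integrin beta 1 chain, by 0.27. ITGA6, an integrin alpha chain that CCN1 binds in fibroblasts, fell by 1.13, EGFR by 0.52 and ITGB3 by 0.52. After siTAZ, 5 of the 15 were higher and 5 lower, with a median of -0.03 against 0.01. ITGB3 was the largest rise named there, at 131 ± 1.10 CPM in siTAZ and 63.7 ± 6.25 CPM in siNT, a log2 difference of 1.04. LRP1, an endocytic receptor of CCN2, fell by 0.72 after siTAZ.

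Among 13 extracellular partners, 12 were tested, and 2 were higher and 8 lower after siYAP, with a median of -0.76. VEGFA, which CCN2 binds, rose by 1.89 and TGFB1, the fibrogenic cytokine, by 0.99. PDGFB, a mitogen of stellate cells, averaged 3.65 ± 0.614 CPM in siYAP and 15.5 ± 1.05 CPM in siNT, a log2 difference of -2.08. VTN, which encodes vitronectin, fell by 2.26 and BMP4 by 1.07. After siTAZ 2 of the 12 were higher and 2 lower, with VEGFA up by 0.61, PDGFB up by 0.52, TNFRSF11B, or osteoprotegerin, down by 0.61 and TGFB1 down by 0.17.

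Proteases reported to cleave CCN2 were higher after siYAP. Of 8 listed, 6 were tested and all 6 rose, with a median log2 fold change of 2.72. MMP1, the interstitial collagenase, averaged 722 ± 19.8 CPM in siYAP and 82.1 ± 4.20 CPM in siNT, a log2 difference of 3.14. MMP3, or stromelysin, averaged 64.1 ± 2.63 CPM in siYAP and 0.907 ± 0.291 CPM in siNT, a log2 difference of 6.14. MMP9, a gelatinase, rose by 3.21. After siTAZ 2 rose and 2 fell: MMP2 was higher by 0.62 and MMP14 by 0.39, whereas MMP1 fell by 1.52 and MMP9 by 1.35.

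All 18 factors upstream of CCN1 and CCN2 were tested. After siYAP 5, WWTR1 included at 0.29, were higher and 10, YAP1 included at -2.99, were lower, with a median of -0.22. VGLL4, which competes with YAP for TEAD proteins, averaged 71.9 ± 4.72 CPM in siYAP and 24.7 ± 2.06 CPM in siNT, a log2 difference of 1.54. SP1 rose by 0.37 and JUN by 0.32, while SMAD4 fell by 0.65 and TEAD1 by 0.54. After siTAZ 5 were higher and 9 lower. The lower ones included WWTR1, the target of the siRNA, at -2.70, and YAP1 at -0.30. TEAD3 rose by 0.37 and VGLL4 by 0.34, while ETS1 fell by 0.35.

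All 20 genes of a list of YAP/TAZ targets without CCN1 and CCN2 were tested. After siYAP 6 were higher and 13 lower, with a median of -0.83, and after siTAZ 1 was higher and 10 lower, with a median of -0.12. TGFB2 fell by 3.79, F3, the tissue factor gene, by 1.84 and AXL by 1.56 after siYAP, whereas NT5E, GADD45A and LATS2 rose by 1.09, 0.73 and 0.43. After siTAZ F3 fell by 0.63, ANKRD1 by 0.81 and CCDC80 by 0.44, and ARHGEF17 rose by 0.33. The values of CCN1 (-1.65 after siYAP and -0.14 after siTAZ) thus stood beside list medians of -0.83 and -0.12, and those of CCN2 were -2.46 and -0.02.

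Secreted proteins that share the IGFBP-type module with the CCN family were mostly lower after siYAP. Of 12 tested from a list of 13, 3 were higher and 9 lower, beside 33.8% and 33.4% of all genes, with a median of -0.73 against 0.02. IGFBP5 averaged 177 ± 6.42 CPM in siYAP and 4284 ± 141 CPM in siNT, a log2 difference of -4.60, and CRIM1 and IGFBP6 fell by 1.39 and 1.14. ESM1, or endocan, rose by 2.39, KAZALD1 by 1.14 and IGFBP7 by 0.82. After siTAZ 3 were higher (HTRA1 by 1.12, IGFBP7 by 0.98 and HTRA3 by 0.44) and 3 lower (ESM1 fell by 1.32, IGFBP5 by 0.85 and IGFBP4 by 0.57).

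Other matricellular proteins gave 4 rises and 6 falls among the 11 tested of 15 after siYAP, with a median of -1.07. SPARC, the collagen-binding osteonectin, averaged 901 ± 21.1 CPM in siYAP and 3276 ± 10.6 CPM in siNT, a log2 difference of -1.86, and the thrombospondin genes THBS2 and THBS1 fell by 1.82 and 1.51. TNC, or tenascin-C, rose by 0.81, TNXB by 1.16 and SPP1, or osteopontin, by 1.95. After siTAZ 3 rose and 3 fell, among them TNC, higher by 0.64, SPARC, higher by 0.46, and POSTN, or periostin, which fell by 0.49.

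**Figure D5:**
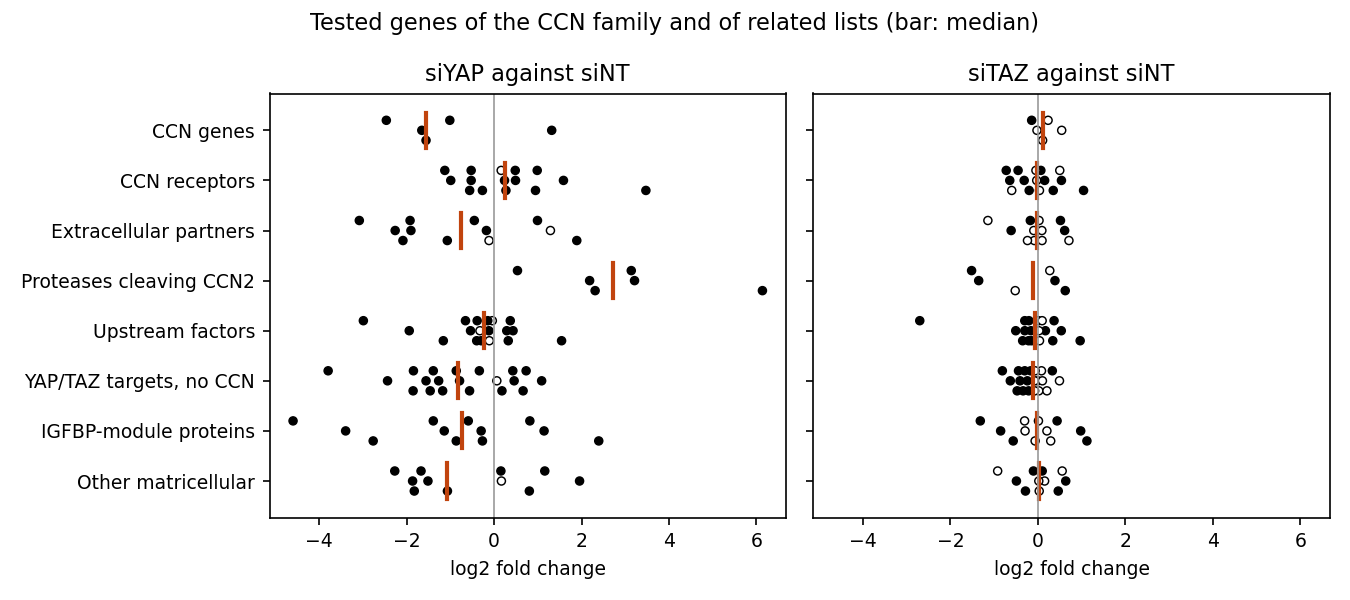
Log2 fold change (x axis) of every tested gene of the CCN family and of 7 related lists, for siYAP against siNT (left) and siTAZ against siNT (right); filled points have an adjusted p under 0.05 and red bars are medians. After siYAP the proteases all lie to the right with a median of 2.72 and the CCN genes lie on both sides with a median of -1.56. That CCN median is the value of the rare CCN5, which passed the count filter through the siTAZ libraries. After siTAZ all medians lie near 0.

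The number of GGAATG words in the 250 bases before the start was set beside the calls of the tested genes with exactly 1 promoter entry. Genes with several promoter entries were left out. After siYAP, 34.6% of 7642 genes with 0 words were called lower, 36.5% of 726 genes with 1 word and 41.0% of 61 genes with 2 words. Of 3 genes with 3 or more words, 2 were called lower. CCN2 was 1 of these 2 and had been picked above for its words and its fall, so this count is no separate evidence. After siTAZ the shares called lower were 19.1%, 19.3% and 19.7% for 0, 1 and 2 words, and 0 of 3 for 3 or more. No test was made of these shares.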

How the data were processed

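The deposited files hold unnormalized counts for Ensembl gene IDs, each from 1 LX2 library. The authors' tools for these counts were HTSeq, Picard, SAMtools, STAR 2.5.0c and Trim Galore, per the submitters' processing notes, which also name the mouse build mm10 although every gene ID is human. The strand setting and annotation release are not given in the sources used here. Rows for reads in no feature (4.73 to 7.49% of reads, highest in siYAP) and ambiguous reads (6.33 to 6.91%) were left out.

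Symbols came from a gene name table (36366 IDs) and GENCODE 29 (219 IDs). All 144 listed genes matched. Coordinates and exon lengths came from GENCODE 29 (GRCh38).

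Software was R 4.3.3 with DESeq2 1.42.0, limma 3.58.1 and edgeR 4.0.16. Genes kept by filterByExpr (minimum count 10, minimum total 15; 15560 genes) were scaled by TMM and fitted with edgeR's robust quasi-likelihood model over all 9 libraries (median prior degrees of freedom 55.3, common BCV, the biological coefficient of variation, 0.0469). Tests were two-sided with Benjamini-Hochberg adjustment over all genes tested, at 0.05. A floor of 3 counts equals 0.157 to 0.177 CPM and covers counting error only. The fit was tested on simulated data.

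The members, lists and tests were chosen with earlier results of these data known. Named genes are the 6 members, YAP1, WWTR1, at most 3 called genes of a list per direction, taken by smallest p, and the 3 genes nearest to each tested member. Alternatives were other scalings and filters, a replicate block, the compared groups alone, DESeq2, limma-voom, the longest transcript as length, and each library left out.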

Additional observations from a re-analysis of the deposited data

How the results depend on the processing

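The calls and directions of CCN1, CCN2 and CCN3 in the 3 comparisons, and of CCN4 and CCN5 in siTAZ against siYAP, were the same under every alternative that could be fitted, except for the direction of CCN2 in siTAZ against siNT, which was not called under any of them. Its log2 difference, -0.022, was 0.0029 without siNT replicate 3 and 0.033 without siTAZ replicate 1. The calls of CCN4 and CCN5 in siTAZ against siYAP came close to the threshold. The highest adjusted p was 0.0492 for CCN4, without siTAZ replicate 3, and 0.0356 for CCN5, without siTAZ replicate 1. With 1 library left out, the log2 difference of siYAP against siNT ranged over -1.18 to -0.86 for CCN4 and -1.73 to -1.29 for CCN5, and adjusted p reached 0.105 and 0.103; the cause was not tested. CCN5 had no value with the stricter filter or, for siYAP against siNT, in the fit over the compared groups alone. With the longest annotated transcript as length, the share of the summed level per kilobase was 74.5% in siYAP, 69.1% in siTAZ and 70.9% in siNT for CCN1, 29.6% in siTAZ and 27.9% in siNT for CCN2, and 0.0436%, 0.0641% and 0.0404% in the 3 groups for CCN5. Deviations from the group means correlated between libraries of unlike groups at -0.00989 to 0.0545 for the same replicate number. For different numbers the range was -0.0405 to 0.0356, so the numbers showed no clear pairing. As a block, the numbers gave 10434 calls for siYAP against siNT, 5413 for siTAZ against siNT and 10268 for siTAZ against siYAP. Without the block there were 10448, 5391 and 10298. Of 3717 values of named list genes under the alternatives, 3687 kept their side of the threshold, 17 lost the call and 13 gained one. Of those called in the main fit or under the alternative, 0 changed direction. Changes of direction among values called in neither were not counted. Low counts limit CCN4 and CCN5, and CCN6 cannot be measured at this depth.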

Other observations

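The 3′ UTRs annotated for the 6 genes were searched for the words that an earlier look at these data had picked for each siRNA group, TGGATAA for siYAP and ATGAAC for siTAZ. TGGATAA was found in 0 of the searched transcripts of CCN1, CCN2, CCN3, CCN5 and CCN6 and in 1 of 4 transcripts of CCN4. ATGAAC was found in the 1 searched transcript of CCN2 and in 0 of those of the other 5 genes. The shares of all 3′ UTRs that hold these words were not counted. These are descriptions of letters, and no effect of an siRNA on these transcripts was tested.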
